A study of Mus musculus with 10 samples.

Results

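The neuropeptide genes Sst, Npy, Cck, Grp, Vip, Tac1, Penk, Pdyn, Nts and Crh were followed in single cells of the E16.5 mouse cortex. They are 10 of the 31053 genes counted, and were taken as a list of precursor genes of well-known brain peptides. The list was chosen with earlier results of these data known. Its shares of calls and medians beside those of all genes are therefore descriptions and not tests of the list. The study compared embryos with 0, 1 or 2 mutant alleles of Gatad2b, which encodes a subunit of the NuRD chromatin remodeling complex. There were 3 WT embryos, 4 Gatad2b stop/+ (Het) embryos and 3 Gatad2b stop/stop (KO) embryos, all at E16.5 and all of a C57BL/6N-Atm1Brd background, with 1 library per embryo. The stop allele is a germline tm1a trapping cassette inserted in an intron of Gatad2b, so every cell of the embryo carries it, and cells of the cortex cannot be separated from effects that reach them from other tissues. The 10x Genomics 3′ version 3 chemistry counts molecules (UMIs) near the 3′ end of each transcript. Gatad2b itself had 142, 132 and 138 CPM in WT, 93.1, 88.1, 89.3 and 96.6 CPM in Het and 49.5, 51.8 and 58.2 CPM in KO (CPM, UMIs of the gene per 1000000 UMIs of the cells summed), so the 3 genotypes did not overlap and followed their labels.

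Neuropeptides are made as long precursors that are cut by prohormone convertases, stored in dense-core vesicles and released onto G protein-coupled receptors. In the cortex and the neighboring striatum they are also classic labels of neuron types. Sst, the somatostatin precursor, and Npy, the neuropeptide Y precursor, mark interneurons born in the medial ganglionic eminence (MGE). Vip, the precursor of vasoactive intestinal peptide, marks interneurons of the caudal ganglionic eminence (CGE), and Crh encodes corticotropin-releasing hormone. Cck (cholecystokinin) is made by interneurons and by excitatory neurons, Grp encodes gastrin-releasing peptide, and Nts encodes neurotensin. Penk (proenkephalin), Tac1 (the substance P precursor) and Pdyn (prodynorphin) distinguish the projection neurons of the striatum.

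The region before the start of transcription is shown for 3 members that recur in the results. Npy and Nts differed most widely between genotypes over all cells among the members that passed the tests below. Sst has a cAMP response element that is the textbook example of a regulatory site of a neuropeptide gene. The sequences are from RefSeq on GRCm38.p6 and are written 5′ to 3′ on the strand of the gene. Npy is given as chr6:49822460-49822709 (+), the 250 bases that end 1 base before the start. Nts is given as chr10:102490487-102490668 (-), 182 bases that end 69 bases before the RefSeq start, and Sst as chr16:23890874-23890903 (-), 30 bases around the element. The Sst stretch lies before the RefSeq start but inside the Sst span given below, which starts further upstream. Capitals mark matches to the motifs searched.
Npy: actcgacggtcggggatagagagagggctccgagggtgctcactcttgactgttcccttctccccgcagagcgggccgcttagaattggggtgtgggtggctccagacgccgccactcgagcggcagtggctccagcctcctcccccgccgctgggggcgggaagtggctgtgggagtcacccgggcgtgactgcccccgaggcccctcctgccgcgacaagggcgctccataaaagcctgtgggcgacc
Nts: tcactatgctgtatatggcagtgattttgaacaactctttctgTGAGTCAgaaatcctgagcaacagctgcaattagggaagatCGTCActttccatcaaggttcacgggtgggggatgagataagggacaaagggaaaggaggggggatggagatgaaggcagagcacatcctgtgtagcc
Sst: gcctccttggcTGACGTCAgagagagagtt
The motifs searched on both strands of the 250 bases before each start were the cAMP response element TGACGTCA, the first 5 letters of it, TGACG, counted apart, the AP-1 site TGANTCA and the TATA box TATAAA. RefSeq promoters were matched for 7 of the 10 members. The whole cAMP response element was found in Sst only, 48 to 41 bases before the start, and in 1.55% of 32851 promoters of that length. The Nts promoter held an AP-1 match 207 to 201 bases before the start and a 5-letter element (CGTCA on this strand) 166 to 162 bases before it, motifs found in 6.75% and 17.8% of promoters. Cck held a 5-letter element 47 to 43 bases before its start, and Tac1 held 2, at 197 to 193 and at 43 to 39 bases. Vip held a 5-letter element at 79 to 75 bases and 3 TATAAA matches, a motif found in 12.4% of promoters. The 250 bases of Npy held none of the 4 motifs. Such matches describe letters and not the binding of a factor. On GRCm38 Npy (ENSMUSG00000029819) spans chr6:49822710-49829507 (+), Nts (ENSMUSG00000019890) chr10:102481756-102490486 (-) and Sst (ENSMUSG00000004366) chr16:23889573-23890958 (-). Cck (ENSMUSG00000032532) lies at chr9:121489824-121495694 (-), Penk (ENSMUSG00000045573) at chr4:4133531-4138819 (-) and Tac1 (ENSMUSG00000061762) at chr6:7554879-7565834 (+).

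The files held 80071 barcodes, and 65779 cells remained after a minimum of 1000 UMIs and a maximum of 10% mitochondrial UMIs. Kept cells per embryo numbered 5147 to 8103, with 82872641 to 123737385 UMIs in all and a median of 10795 to 17077.5 UMIs per cell. Any 2 libraries shared 4 to 19 kept barcodes. The cells were clustered without the 10 members, and 14 classes were named from marker lists, written here as layer V-VI-like and so on. Each had at least 3 of its markers in at least 10% of its cells, and 13 classes reached 20 cells in each of the embryos. Although the tissue was labeled cortex, 524 to 966 cells per embryo were striatal inhibitory-like. Cluster 16, with 1342 cells, scored 1.24 for MGE interneuron markers and 0.976 for CGE interneuron markers, had none of either list, neither of which holds a member, among its leading genes, and was left as unresolved. Whether its cells belong to the cortex was not tested. It was led by Sst, Npy and Tac1. The members were not used to form it, and their high levels describe the cluster and are not a tested finding. The same holds for Sst in 1 MGE interneuron-like cluster, and for Grp and Cck in 1 layer V-VI-like cluster led by Crym. Erythroid-like cells, which should not make neuropeptides, were taken as the measure of free RNA. Among them 1 cell of WT 2 held 23 UMIs of Grp and 1 cell of Het 3 held 18 of Tac1. Whether this measure holds free RNA alone was not tested. The library names carry 1 of 2 prefixes. WT 1 to 3 and Het 4 share one, and Het 1 to 3 and KO 1 to 3 share the other, so that KO and prefix cannot be told apart in KO vs WT.

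The abundance of the members in the tissue spanned a wide range of detection. Over all kept cells, Npy gave 87617 UMIs and Sst 82745, with at least 1 UMI in 14.1% and 10.9% of the cells. Cck gave 43481 UMIs and was the most widely detected member, in 15.9% of cells, and Nts gave 25994 UMIs but in only 3.02% of cells. Grp gave 16264 UMIs, Tac1 4672 and Penk 3910. Crh and Pdyn gave 217 and 238 UMIs. Vip gave 22 UMIs in 15 cells, which was too few to test in any comparison. Transcripts of a peptide were concentrated in few cells: the 1% of cells richest in a member held 94.2% of the UMIs of Nts, 82.2% of those of Sst and 62.4% of those of Npy. The richest single cells held 1215 UMIs of Sst, 796 of Npy and 506 of Nts.

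Each member had its own distribution over the classes. Sst and Npy were highest in cluster 16 and then in MGE interneuron-like cells, with means over 10 embryos of 2073 and 756 CPM for Sst and of 1212 and 400 CPM for Npy. Cluster 16 and MGE interneuron-like cells overlapped in range, whereas for both genes the MGE range lay above that of the next class. That next class was the CGE interneuron-like class for Sst, at 140 CPM, and the layer V-VI-like class for Npy, also at 140 CPM. Layer V-VI-like cells, 722 to 1326 per embryo, nevertheless held the largest share of Npy UMIs, 36.5%, ahead of 27.4% in MGE interneuron-like cells. Sst UMIs lay mainly in MGE interneuron-like cells (50.9%) and cluster 16 (34.2%). Cck ranged over cluster 16 (114 CPM), layer V-VI-like (91.9 CPM), Cajal-Retzius-like (63.1 CPM), MGE interneuron-like (51.2 CPM), layer II-IV-like (39.5 CPM) and CGE interneuron-like cells (22.7 CPM), with neighbors among the first of these overlapping in range, and layer V-VI-like cells held 46.6% of its UMIs. Grp was found mainly in excitatory neurons, at 42.1 CPM in layer V-VI-like cells, above the range of the layer II-IV-like cells at 12.1 CPM.

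**Figure D1:**
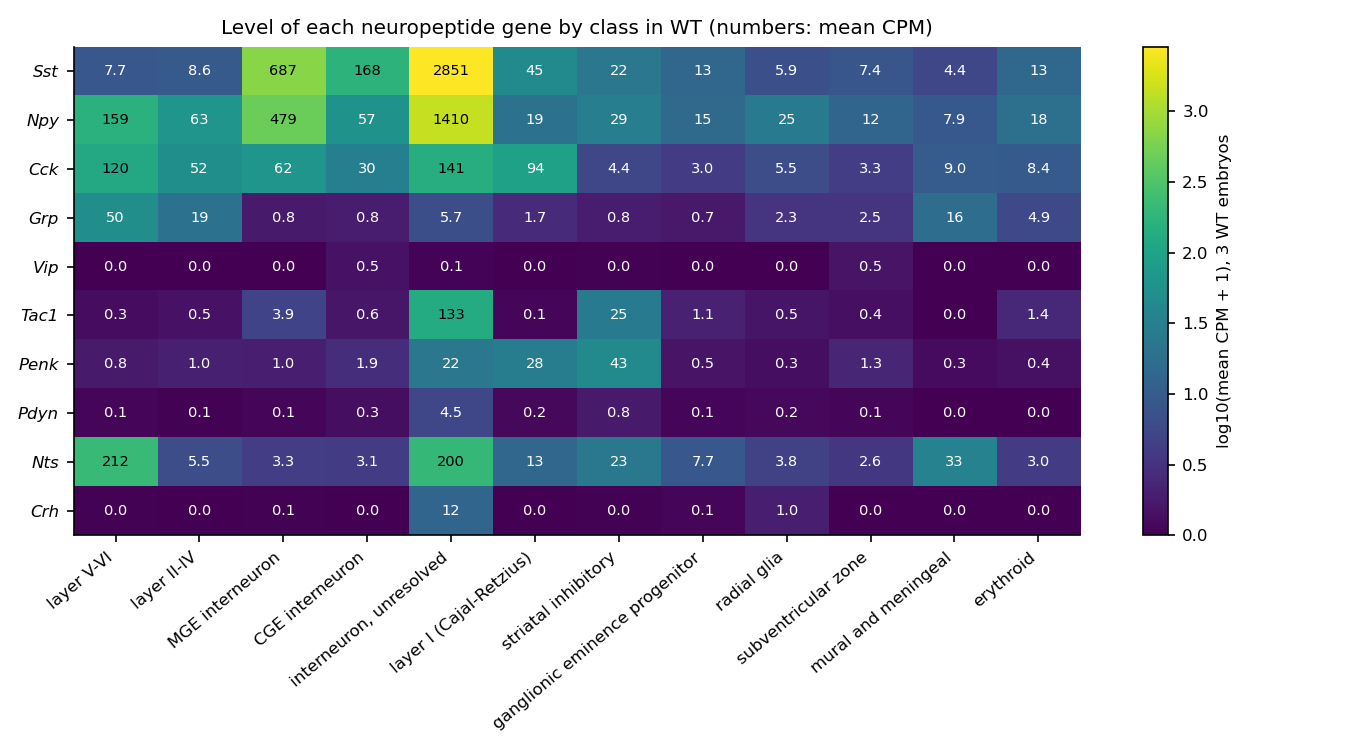
Level of the 10 neuropeptide genes (rows) in 12 classes (columns) of the 3 WT embryos. Numbers are mean CPM and colors are log10(mean CPM + 1), to be read along a row. Nts stands out in layer V-VI-like cells and the unresolved cluster, and Penk in striatal inhibitory-like cells.

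In WT most Nts UMIs lay in layer V-VI-like cells, where Nts had 181, 191 and 265 CPM. These cells held 82.9% of the Nts UMIs of WT embryos, with a range of 81.7% to 84.7%. Cluster 16 varied between WT embryos and reached 460 CPM of Nts. Striatal inhibitory-like cells had 24.4, 15.3 and 30.6 CPM and mural and meningeal-like cells 12.1, 47.1 and 41.1 CPM, against 1.33, 3.30 and 4.44 CPM in erythroid-like cells. Tac1 UMIs were divided between cluster 16 (36.7%) and striatal inhibitory-like cells (35.6%). Penk was found mainly in striatal inhibitory-like cells, which held 42.3% of its UMIs, and in Cajal-Retzius-like cells, which held 23.2%. Crh, Pdyn and Vip stayed near the floor of detection, and only cluster 16 had more than a few CPM of Crh, between 0 and 35.3 CPM. Single cells carried this level, with 62 UMIs in 1 cell of WT 3, 31 in 1 cell of Het 2 and 17 in 1 cell of Het 4. Unnamed clusters held from 0% to 12.4% of the UMIs of a member, the highest share being that of Grp.

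**Figure D2:**
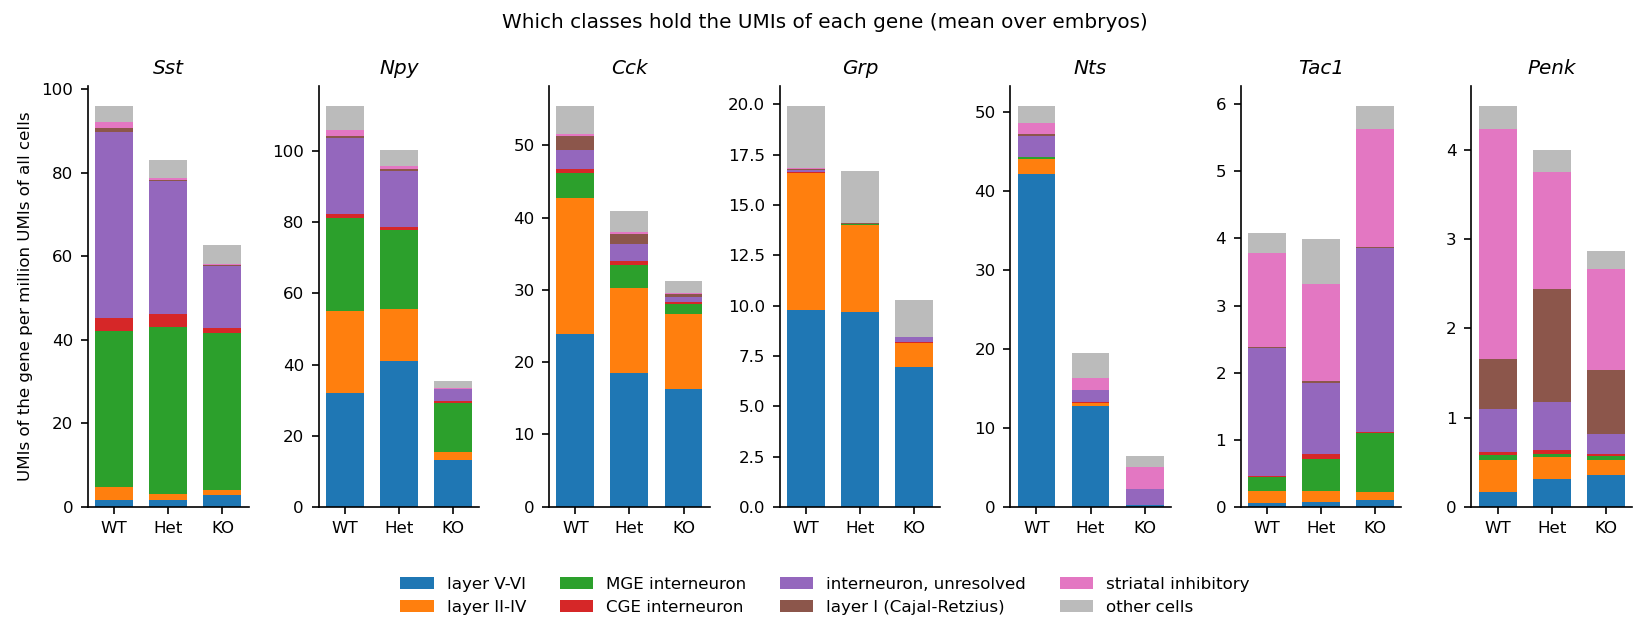
UMIs of 7 neuropeptide genes per 1000000 UMIs of all cells, divided by the class that held them and averaged over the embryos of a genotype (stacked bars start at 0). The layer V-VI part of Nts (blue) shrinks from WT over Het to KO, while the striatal and unresolved parts remain.

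Detection in single cells was compared after each cell was thinned to 2000 UMIs. In MGE interneuron-like cells of WT, 48.6% ± 1.57 (SD, n = 3) of the cells with an Sst UMI also had an Npy UMI, against 22.3% of the other cells. This share was 44.8% ± 5.22 in the 4 Het and 29.0% ± 5.50 in the 3 KO embryos, against 17.98% and 15.4% of their other cells. Of the cells with an Npy UMI, 38.6%, 39.9% and 33.6% had an Sst UMI in WT, Het and KO. Of layer V-VI-like cells with an Nts UMI, 1.72% ± 1.61 (SD, n = 3) had an Npy UMI in WT, against 11.3% of the others and 3.37% of erythroid-like cells. The share in Nts cells rests on 2 of 63, 1 of 50 and 0 of 61 cells. It was no higher than in erythroid-like cells, which were shallower before thinning and so may overstate free RNA here. Grp cells of this class likewise had an Npy share (1.86%) no higher than that of erythroid-like cells. A Cck UMI was found in 12.4% ± 7.80 (SD, n = 3) of the Grp cells and 11.1% of the rest in WT, in 20.8% and 10.3% in the 3 Het embryos with a value, and in 29.2% ± 6.60 (SD, n = 3) and 10.1% in KO. In WT layer II-IV-like cells Cck was found in 12.1% of Grp cells and in 6.08% of the rest. These shares are descriptions, since cells of 1 embryo are not replicates and cells within a class differ in type.

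Clusters at a finer resolution of 0.8 separated the members within layer V-VI-like cells. Finer cluster 2, led by the corticothalamic genes Hs3st4 and Tle4, had 332, 312 and 289 CPM of Nts in WT. Finer cluster 18, led by Nr4a2 and Rprml, had 324, 570 and 619 CPM. Finer cluster 11, led by Npy, Fezf2 and Ldb2, had 393, 352 and 346 CPM of Npy in WT, and finer cluster 9, led by Grp and Crym, had 267, 285 and 298 CPM of Cck. The genes whose level was most like that of a member over the 26 clusters, among 12894 genes compared, were Hs3st4 (Pearson r = 0.831) and Ptprr (0.810) for Nts, Npy2r (0.924) and Lhx6 (0.901) for Sst, and Edaradd (0.811) and Gabra3 (0.771) for Npy. For Cck they were Rac3 (0.830) and Rab3b (0.821), for Grp Arhgap28 (0.784) and Ntf3 (0.742), and for Penk they included Casz1 (0.831). For Tac1 they were Htr7 (0.864) and Prok2 (0.787). Otp was among the 2 most alike genes for both Crh (0.953) and Pdyn (0.852), beside Fezf1 (0.947) and Gbx1 (0.886). Crh had 9.25 CPM in cluster 16 and at most 0.827 CPM in any other cluster, and Pdyn 4.54 CPM and at most 1.78 CPM. The coefficients of these 2 members therefore rest largely on 1 cluster and on levels near the floor. Vip, at under 1 CPM in every cluster, was most like Asic4 (0.783) and St8sia5 (0.690). The clusters share libraries, depth and many cell types, so these coefficients are given as descriptions.

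The first comparison asked how the level of each member over all cells differed between genotypes. With 2 mutant alleles 5 of the 9 tested members were lower, namely Nts, Npy, Grp, Cck and Penk, and none was higher. Of all genes tested, 24.5% were called in that comparison, KO vs WT. With 1 mutant allele Nts alone was lower, where 2.98% of all genes were called (Het vs WT). Sst, Tac1, Pdyn and Crh were called in no comparison as analysed. With at most 5% mitochondrial UMIs per cell Tac1 was called in KO vs WT (adjusted p = 0.0466, edgeR), and DESeq2 also called Penk in KO vs Het (adjusted p = 0.0334). In these sums, fewer cells of a type and less RNA per cell cannot be told apart, and the p-values measure the spread between embryos.

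Npy had 106, 107 and 126 CPM in WT, 88.3, 99.2, 118 and 95.8 CPM in Het and 34.2, 32.5 and 39.7 CPM in KO. The KO embryos lay far below both other genotypes, whereas WT and Het overlapped. The log2 fold change was -1.63 ± 0.103 (SE) in KO vs WT (adjusted p = 2.46e-06, edgeR), -1.49 ± 0.0983 in KO vs Het (adjusted p = 1.57e-05) and -0.13 ± 0.0929 in Het vs WT (adjusted p = 0.401). Nts had 43.4, 50.7 and 58.1 CPM in WT, 18.2, 19.3, 26.6 and 13.8 CPM in Het and 3.90, 9.34 and 6.18 CPM in KO, with no overlap between any 2 genotypes. It fell, with log2 fold changes of -1.34 ± 0.239 in Het vs WT (adjusted p = 0.0188, edgeR), -2.95 ± 0.286 in KO vs WT (adjusted p = 4.24e-05) and -1.60 ± 0.270 in KO vs Het (adjusted p = 0.00486). The call in Het vs WT was lost without Het 1 (adjusted p = 0.0620, edgeR), Het 2 (0.0519) or WT 3 (0.0722).

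Cck had 46.4, 51.6 and 68.2 CPM in WT and 38.6, 29.1 and 26.0 CPM in KO, without overlap, and Het embryos had 39.6, 45.3, 45.5 and 33.0 CPM. The difference was -0.78 ± 0.178 in KO vs WT (adjusted p = 0.00632, edgeR) and -0.40 ± 0.164 in Het vs WT (adjusted p = 0.149). Grp had 13.4, 21.2 and 25.1 CPM in WT and 13.5, 8.04 and 9.38 CPM in KO, so that KO 1 reached the lowest WT embryo. Its difference in KO vs WT, -0.90 ± 0.271 (adjusted p = 0.0235, edgeR), was not called without KO 2 (adjusted p = 0.0894), KO 3 (0.0775), WT 2 (0.0615) or WT 3 (0.0901). Penk had 4.05, 3.96 and 5.47 CPM in WT and 3.12, 2.64 and 2.84 CPM in KO. Its difference of -0.60 ± 0.166 (adjusted p = 0.0163, edgeR) was not called without KO 2 (adjusted p = 0.0570) or WT 3 (0.0662), or with at most 5% mitochondrial UMIs per cell (0.113).

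Sst varied within genotypes, from 60.8 to 138 CPM in WT, from 34.0 to 138 CPM in Het and from 53.9 to 80.4 CPM in KO. The difference of -0.57 ± 0.404 in KO vs WT (adjusted p = 0.291, edgeR) was within this spread. Tac1 ranged from 3.79 to 4.42 CPM in WT and from 3.43 to 7.87 CPM in KO (log2 fold change 0.59 ± 0.331, adjusted p = 0.187, edgeR). Pdyn was between 0.110 and 0.315 CPM in every embryo. Crh depended on single embryos, with 0.753 CPM in WT 3 and at most 0.0506 CPM in the other WT embryos. Of all 17647 genes tested over all cells, 2.98% were called in Het vs WT, 24.5% in KO vs WT and 5.50% in KO vs Het. The median log2 fold change in KO vs WT was -0.78 over the 9 members tested and -0.01 over all genes.

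**Figure D3:**
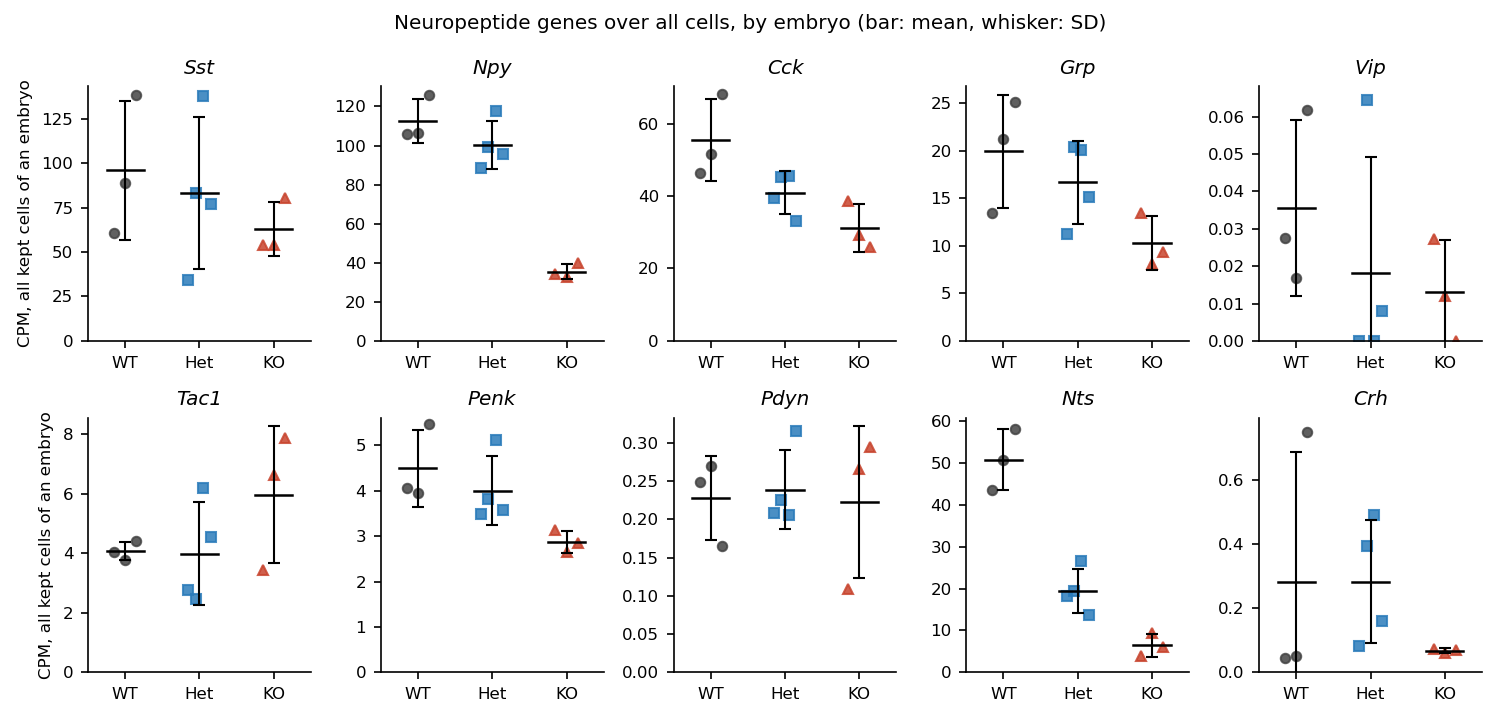
Level of the 10 neuropeptide genes over all kept cells of each embryo, in CPM on linear axes from 0. Points are embryos, bars are means and whiskers are the SD (3 WT, 4 Het and 3 KO). Npy and Nts of KO lie below every WT and Het embryo.

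Levels within a class were compared next, which sets aside the number of cells of that class. Of 53 pairs of a member and a class that could be tested, 8 were called in Het vs WT, all lower, 24 in KO vs WT, of which 21 were lower, and 9 in KO vs Het, of which 8 were lower. These are 15.1%, 45.3% and 17.0% of the pairs, where 1.38%, 13.2% and 3.21% of all 133264 pairs of a gene and a class were called. In 5 of the 8 pairs of Het vs WT, 9 of the 24 of KO vs WT and 1 of the 9 of KO vs Het, the embryos of the higher genotype did not all lie above the range of the erythroid-like cells of that genotype. Those were Nts, Sst and Penk in layer II-IV-like cells, Sst and Cck in striatal inhibitory-like cells, Npy and Sst in subventricular zone-like cells, and Npy and Cck in radial glia-like cells. Their levels cannot be separated from free RNA. By CPM, free Npy RNA was lower in KO, at 0.682, 2.28 and 5.22 CPM in erythroid-like cells against 17.3, 15.1 and 21.6 CPM in WT. Neither edgeR nor DESeq2 called this difference, and Npy had an unadjusted p under 0.05 in edgeR. These CPM leave out the TMM factors of erythroid-like cells, which were 0.439, 0.516 and 0.714 in KO and 1.84, 1.33 and 1.88 in WT.

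In layer V-VI-like cells, 7 members were tested and 1 was called in Het vs WT, 4 in KO vs WT and 2 in KO vs Het, where 1.29%, 23.4% and 9.14% of all genes were. In layer II-IV-like cells 7 members gave 2, 6 and 2 calls, beside 6.15%, 30.0% and 11.7% of all genes. In MGE interneuron-like cells 4 members gave 0, 3 and 2 calls, beside 0.877%, 16.51% and 3.24% of genes. The 0 calls of Het vs WT there are edgeR's. Tac1 had an unadjusted p under 0.05, and DESeq2 gave 0 calls as well. In CGE interneuron-like cells 3 members gave 0, 1 and 1 calls, beside 0.248%, 6.13% and 0.368%, and in Cajal-Retzius-like cells 4 members gave 0, 1 and 1 calls, beside 0.142%, 5.48% and 0.969%. In Het vs WT, 0 members of the CGE interneuron-like class and 2 of the Cajal-Retzius-like class had an unadjusted p under 0.05 in edgeR, and DESeq2 called 0 in both. In striatal inhibitory-like cells 6 members gave 3, 5 and 0 calls, beside 2.43%, 17.0% and 0.621%. For KO vs Het there, 2 members had an unadjusted p under 0.05 in edgeR, and DESeq2 called 0.

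The interneuron peptides are taken first. Sst in MGE interneuron-like cells had 490, 798 and 772 CPM in WT, 524, 545, 1219 and 705 CPM in Het and 942, 585 and 976 CPM in KO. All 3 genotypes overlapped. The log2 fold change in KO vs WT was 0.30 ± 0.243 (adjusted p = 0.429, edgeR), with a 95% interval from -0.21 to 0.81. The share of these cells with an Sst UMI after thinning was 22.4% ± 2.83, 21.0% ± 1.46 and 21.0% ± 5.32 (SD) in WT, Het and KO, with 1.62%, 2.05% and 1.75% in erythroid-like cells. Median depths before thinning were 6387 to 8468 UMIs in MGE interneuron-like and 6179.5 to 11800 UMIs in erythroid-like cells. Het 3, the highest embryo, also had the most Sst in erythroid-like cells, 66.3 CPM against 2.28 to 15.3 CPM in the other embryos. In cluster 16 Sst had 3429, 1048 and 4075 CPM in WT, 2411, 2456, 3317 and 788 CPM in Het and 1093, 1073 and 1039 CPM in KO. The KO embryos lay close together at the level of the lowest WT embryo, and the difference of -1.40 was not called (adjusted p = 0.253, edgeR). No member was called by edgeR in this cluster of 32 to 254 cells per embryo, where 0.00%, 0.164% and 0.00% of all genes were called in Het vs WT, KO vs WT and KO vs Het. In KO vs WT there, 5 of 8 tested members had an unadjusted p under 0.05 in edgeR and DESeq2 called 0. In KO vs Het these were 6 members and 1, Grp, and in Het vs WT 1 and 0.

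Npy in MGE interneuron-like cells had 419, 502 and 515 CPM in WT, 327, 393, 530 and 395 CPM in Het and 306, 250 and 364 CPM in KO. KO did not overlap WT, and Het spanned the gap between them. It fell by 0.62 ± 0.134 on the log2 scale in KO vs WT (adjusted p = 0.00349, edgeR; -1.17 with the members among the genes used for clustering), and the difference in KO vs Het was -0.43 (adjusted p = 0.0724). The difference between finer clusters of this class was not tested. In finer cluster 15, led by Sox1, Npy had 512, 682 and 698 CPM in WT and 149, 317 and 323 CPM in KO. In finer cluster 21, led in part by Sst, it had 516, 488 and 641 CPM in WT and 811, 400 and 548 CPM in KO, so these ranges overlapped. In cluster 16 Npy had 1642, 388 and 2199 CPM in WT, 4334, 1199, 1327 and 318 CPM in Het and 262, 277 and 173 CPM in KO, and the difference of -2.56 in KO vs WT was not called (adjusted p = 0.211, edgeR).

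Npy was lower in excitatory neurons of KO too. In layer V-VI-like cells Npy had 192, 156 and 129 CPM in WT, 194, 159, 195 and 196 CPM in Het and 66.7, 51.9 and 61.5 CPM in KO. KO lay below every other embryo, and Het did not lie below WT. The change was -1.34 ± 0.128 in KO vs WT (adjusted p = 4.13e-06, edgeR) and -1.60 ± 0.123 in KO vs Het (adjusted p = 1.76e-06), and 0.26 ± 0.116 in Het vs WT (adjusted p = 0.248). In finer cluster 11, led by Npy, Fezf2 and Ldb2, the values were 393, 352 and 346 CPM in WT, 485, 533, 604 and 558 CPM in Het and 130, 112 and 189 CPM in KO. After thinning, 10.7% ± 1.86 (SD) of WT, 8.74% ± 1.77 of Het and 4.15% ± 0.846 of KO layer V-VI-like cells had an Npy UMI, against 3.37%, 1.77% and 0.702% of erythroid-like cells. The median depth before thinning was 18266 to 23296 UMIs in layer V-VI-like and 6179.5 to 11800 UMIs in erythroid-like cells.

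In layer II-IV-like cells Npy was lower still in KO, with 57.9, 74.5 and 57.7 CPM in WT, 44.5, 46.9, 55.9 and 35.5 CPM in Het and 7.46, 7.84 and 3.36 CPM in KO. The log2 fold change was -3.31 ± 0.222 in KO vs WT (adjusted p = 6.86e-08, edgeR) and -2.87 ± 0.217 in KO vs Het (adjusted p = 8.41e-07). Without integration of the embryos before clustering these values were -4.75 and -4.32. The KO levels of 7.46 and 7.84 CPM lay above the erythroid-like level of the same embryos, and that of 3.36 CPM lay below it. In finer cluster 8, led by Inhba, Npy had 156, 270 and 192 CPM in WT, 112 to 201 CPM in Het and 23.9, 3.27 and 14.1 CPM in KO. In striatal inhibitory-like cells Npy had 33.5, 24.5 and 29.7 CPM in WT, 15.9, 15.1, 17.9 and 11.7 CPM in Het and 2.88, 9.14 and 10.9 CPM in KO, with no overlap between WT and the mutants. The log2 fold changes were -0.92 ± 0.199 in Het (adjusted p = 0.0250, edgeR) and -1.88 ± 0.246 in KO (adjusted p = 1.04e-04). The Het call was lost without any 1 of Het 1, Het 2, WT 1 and WT 3, with at most 5% mitochondrial UMIs (adjusted p = 0.246) and in DESeq2 (adjusted p = 0.117). The erythroid-like level of Npy moved with the same genotypes by CPM, without a call in KO vs WT. Its part in this low signal was not tested.

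Cck was lower in KO in 5 classes above the erythroid-like level, of both inhibitory and excitatory neurons. In MGE interneuron-like cells it had 75.5, 48.6 and 61.2 CPM in WT, 59.3, 56.6, 56.4 and 59.9 CPM in Het and 40.9, 27.6 and 25.8 CPM in KO. Het lay within the WT range and KO below both, with a change of -0.96 ± 0.155 in KO vs WT (adjusted p = 3.28e-04, edgeR) and -0.90 ± 0.149 in KO vs Het (adjusted p = 0.00160). In finer cluster 10 of this class, led by Maf and Nxph1, Cck had 118, 96.5 and 107 CPM in WT, 98.4 to 105 CPM in Het and 49.9, 52.2 and 35.3 CPM in KO. In CGE interneuron-like cells it had 28.5, 36.7 and 25.5 CPM in WT, 31.8, 22.4, 18.2 and 35.7 CPM in Het and 7.87, 11.1 and 9.54 CPM in KO. The log2 fold change was -1.65 ± 0.264 in KO vs WT (adjusted p = 4.20e-04, edgeR) and -1.54 ± 0.256 in KO vs Het (adjusted p = 0.00300).

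In Cajal-Retzius-like cells, the early neurons of layer I that secrete reelin, Cck had 71.7, 61.7 and 150 CPM in WT, 57.1, 60.5, 95.1 and 60.5 CPM in Het and 21.8, 13.3 and 38.9 CPM in KO. KO lay below all other embryos, with a log2 fold change of -1.87 ± 0.318 vs WT (adjusted p = 9.61e-04, edgeR) and -1.40 ± 0.317 vs Het (adjusted p = 0.0347), the latter not called without Het 3, KO 1 or KO 2, nor with at most 5% mitochondrial UMIs (adjusted p = 0.0664) or by DESeq2 (adjusted p = 0.0960). In layer V-VI-like cells Cck had 103, 110 and 147 CPM in WT, 84.3, 93.2, 97.8 and 63.8 CPM in Het and 86.3, 71.7 and 61.8 CPM in KO, a change of -0.65 ± 0.161 in KO vs WT (adjusted p = 0.00747, edgeR). In layer II-IV-like cells Cck had 39.9, 51.0 and 64.9 CPM in WT and 39.5, 31.8 and 23.1 CPM in KO. This difference of -0.68 ± 0.196 (adjusted p = 0.0128, edgeR) was not called without KO 3 (adjusted p = 0.0721) or WT 3 (0.0730). After thinning, the share of layer V-VI-like cells with a Cck UMI was 11.2% ± 1.53, 10.4% ± 1.45 and 10.9% ± 2.5 (SD) in WT, Het and KO, against 1.45%, 0% and 0.702% of erythroid-like cells, so the share with a UMI did not follow the CPM.

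**Figure D4:**
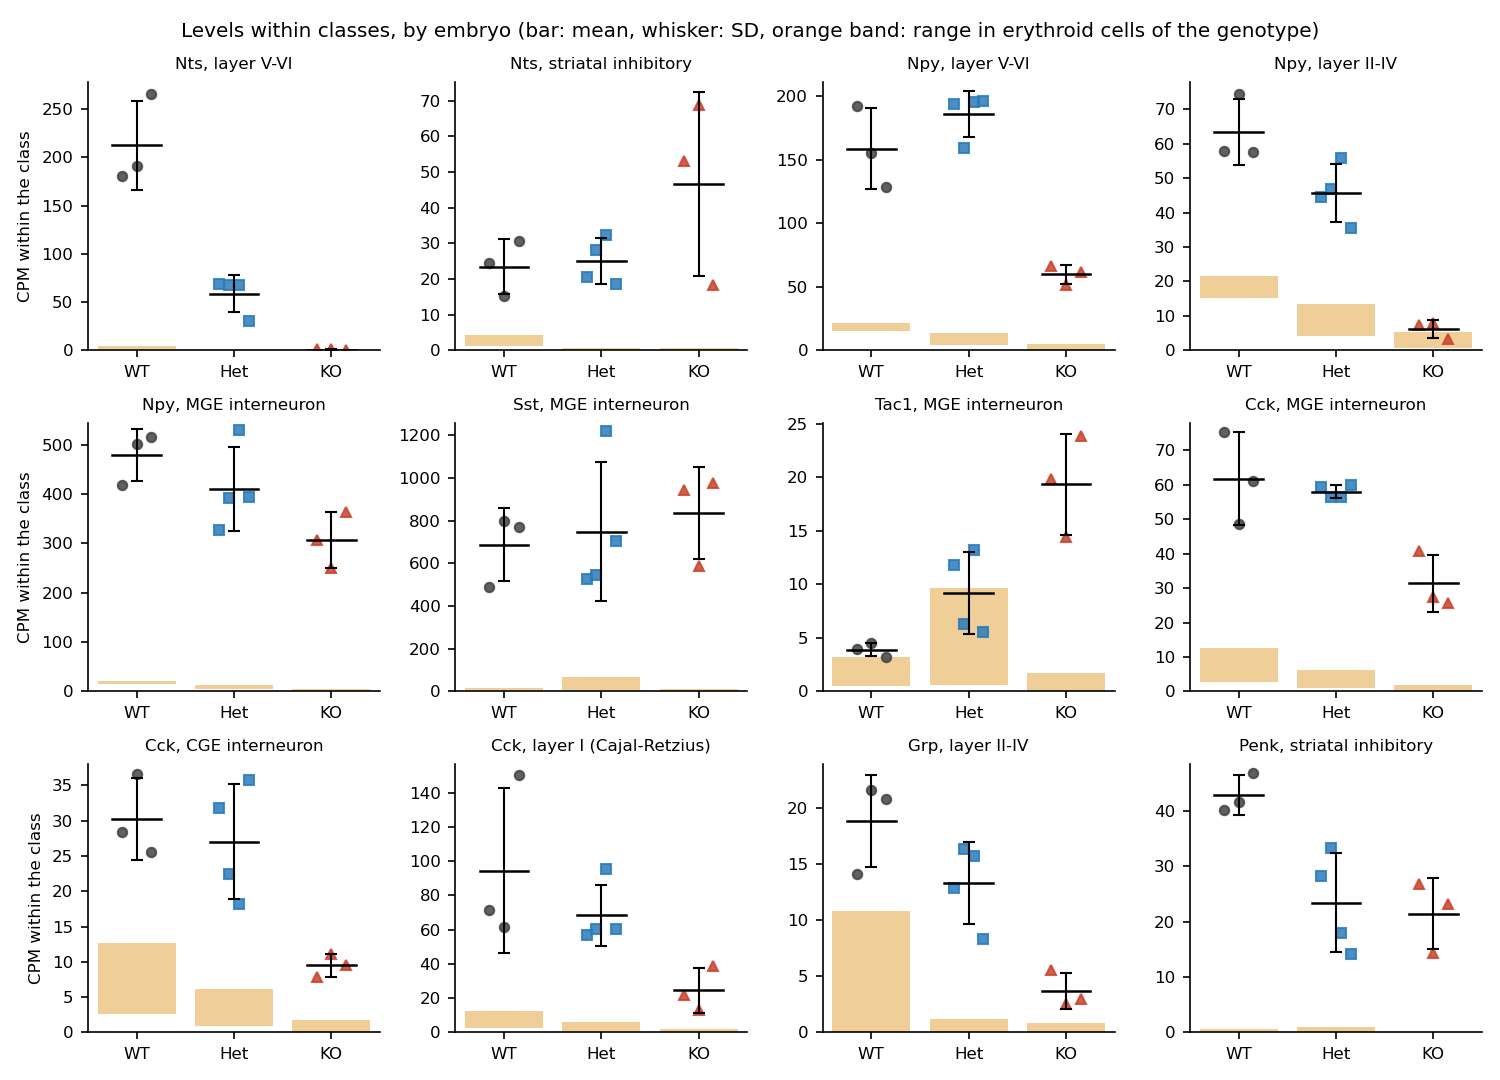
Level of neuropeptide genes within classes, in CPM, for 12 pairs of a gene and a class. Points are embryos, bars are means, whiskers are the SD, and the orange band is the range of the gene in erythroid-like cells of that genotype (3 WT, 4 Het and 3 KO embryos). Nts in layer V-VI-like cells steps down from WT to Het to KO, and Sst in MGE interneuron-like cells overlaps in all 3 genotypes.

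Nts gave the largest difference of all members. In layer V-VI-like cells it had 181, 191 and 265 CPM in WT, 68.8, 67.7, 68.2 and 30.9 CPM in Het and 1.16, 0.957 and 0.0999 CPM in KO. The 3 genotypes were far apart, and the KO values rest on 32, 16 and 2 UMIs. The log2 fold change from WT was -1.83 ± 0.230 with 1 mutant allele (adjusted p = 0.00218, edgeR) and -8.03 ± 0.419 with 2 (adjusted p = 1.88e-08), and that of KO vs Het was -6.20 ± 0.426 (adjusted p = 5.10e-07). Each of these calls held without any 1 embryo. The lowest Het embryo, Het 4, shares its library prefix with WT.

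After thinning, 5.82%, 4.89% and 6.81% of layer V-VI-like cells had an Nts UMI in WT, 2.74%, 3.14%, 3.03% and 1.13% in Het and 0.180%, 0% and 0% in KO. The KO cells with a UMI were 2 of 2702, and erythroid-like cells had 4 of 536 in WT, 0 of 562 in Het and 0 of 314 in KO. The genotypes did not overlap. With 3 against 4 embryos the exact permutation test (two-sided) gave p = 0.0571 in the comparisons of Het with WT and of KO with Het, and with 3 against 3 it gave p = 0.1 for KO vs WT, which are the smallest values these designs allow. The cells with Nts also held fewer UMIs of it in Het, 4.46 per thinned cell with a UMI against 6.67 in WT. Before thinning, the shares were 11.8%, 10.9% and 13.3% in WT, 6.11%, 5.29%, 5.18% and 3.70% in Het and 0.811%, 0.416% and 0.230% in KO.

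Both Nts-rich finer clusters took part. In finer cluster 2, led by Hs3st4 and Tle4, Nts had 201, 178, 113 and 28.6 CPM in Het and 0.361, 3.00 and 0 CPM in KO, against at least 289 CPM in WT. In finer cluster 18, led by Nr4a2 and Rprml, it had 33.7, 99.9, 102 and 123 CPM in Het and 0.574, 0 and 51.9 CPM in KO, against at least 324 CPM in WT. The value of 51.9 CPM in KO 3 came from 25 cells that belonged to the unnamed cluster 4 at the main resolution and held 248 UMIs of Nts, 178 of them in 1 cell. Finer cluster 11 varied more between WT embryos, at 67.3, 48.9 and 311 CPM, and had at most 1.27 CPM in KO. With layer V-VI-like cells named at this finer resolution, the value of Nts was -5.53 in KO vs WT and -3.70 in KO vs Het, both still called.

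The classes outside the cortical layers in which Nts could be tested, namely the striatal inhibitory-like class, the mural and meningeal-like class and cluster 16, did not show this order. In striatal inhibitory-like cells it had 24.4, 15.3 and 30.6 CPM in WT, 20.6, 28.2, 32.5 and 18.7 CPM in Het and 53.1, 68.8 and 18.3 CPM in KO. KO 3 lay within the WT range, and the rise of 1.04 ± 0.329 in KO vs WT (adjusted p = 0.0350, edgeR) was not called without KO 1, KO 2 (0.62, adjusted p = 0.272), WT 1 or WT 2, nor by DESeq2 (adjusted p = 0.166). In mural and meningeal-like cells the ranges overlapped, at 12.1 to 47.1 CPM in WT, 9.89 to 89.3 CPM in Het and 39.4 to 80.9 CPM in KO. In cluster 16 Nts ranged from 6.83 to 460 CPM in WT and from 88.4 to 219 CPM in KO. Other classes had too few UMIs of Nts for the test. Some of them were also lower in KO than in WT. For radial glia-like cells the shares with an Nts UMI before thinning were 5.47%, 3.91% and 4.35% (WT). They were 2.19%, 2.46%, 2.36% and 1.10% (Het) and 0.995%, 0.862% and 0% (KO), so the genotypes did not overlap. By the same share, subventricular zone-like cells of WT (2.29% to 4.49%) lay above Het (at most 1.13%), and Het overlapped KO. WT and Het overlapped for MGE and CGE interneuron-like cells. MGE interneuron-like cells had 4.15, 1.60 and 4.16 CPM in WT, 0.664 to 1.65 CPM in Het and 0 to 0.199 CPM in KO, and CGE interneuron-like cells held 4, 6 and 9 UMIs in WT, 1 to 5 in Het and 0, 1 and 0 in KO. The erythroid-like level moved alike, at 1.33 to 4.44 CPM in WT, 0 to 0.597 CPM in Het and 0 to 0.682 CPM in KO, and its part in these low values was not tested. The share of Nts UMIs held by layer V-VI-like cells was 82.9% in WT and 66.3% in Het, and in KO striatal inhibitory-like cells held 42.4% and cluster 16 held 28.5%.

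The difference between classes was tested directly, by the interaction of class and genotype in 1 edgeR fit over both classes. This test was added after the data had been seen, for 3 pairs of classes that each held layer V-VI-like cells. In KO vs WT the log2 fold change of Nts was 9.06 higher in striatal inhibitory-like than in layer V-VI-like cells (adjusted p = 2.20e-13), and in Het vs WT 2.01 higher (adjusted p = 6.86e-05). That of Npy in KO vs WT was lower in layer II-IV-like than in layer V-VI-like cells (interaction -1.98, adjusted p = 8.83e-05) and 0.71 higher in MGE interneuron-like than in layer V-VI-like cells (adjusted p = 0.00479). That of Tac1 in KO vs WT was 1.80 higher in MGE interneuron-like than in layer V-VI-like cells and was not called (adjusted p = 0.0718, edgeR). For KO vs WT these tests called 10.7% of all genes, and for Het vs WT 0.473%.

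Grp, with most of its UMIs in excitatory neurons, differed by layer. In layer II-IV-like cells it had 14.1, 21.5 and 20.8 CPM in WT, 12.9, 16.3, 15.7 and 8.28 CPM in Het and 5.52, 2.53 and 3.01 CPM in KO. KO lay below the other genotypes, and the log2 fold change was -2.28 ± 0.279 in KO vs WT (adjusted p = 2.07e-05, edgeR) and -1.81 ± 0.276 in KO vs Het (adjusted p = 4.07e-04). WT 2 had 10.8 CPM of Grp in erythroid-like cells, all of it from 23 UMIs in 1 cell, and the other WT embryos had 0 and 3.8 CPM. In layer V-VI-like cells Grp had 30.4, 43.4 and 74.7 CPM in WT, 23.6, 55.7, 56.5 and 42.5 CPM in Het and 36.1, 26.3 and 31.5 CPM in KO, with overlap and no call (-0.58 ± 0.302 in KO vs WT, adjusted p = 0.160, edgeR). The difference between the layers was called (interaction -1.75 in KO vs WT, adjusted p = 0.00159, edgeR). In finer cluster 9, led by Grp and Crym, Grp had 118, 125 and 176 CPM in WT, 74.9 to 175 CPM in Het and 89.4 to 111 CPM in KO, so that KO lay within the Het range and just below the lowest WT embryo. In finer cluster 3 of the layer II-IV-like class it had 37.0, 49.5 and 58.8 CPM in WT, 19.1 to 54.2 CPM in Het and 8.79, 4.65 and 9.46 CPM in KO.

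The peptides best known from the striatum, Tac1 and Penk, follow. Tac1 in MGE interneuron-like cells was the clearest increase, from 3.97, 4.49 and 3.25 CPM in WT over 11.8, 6.31, 13.2 and 5.58 CPM in Het to 19.8, 14.4 and 23.8 CPM in KO. By CPM the genotypes did not overlap. The rise was 2.33 ± 0.291 in KO vs WT (adjusted p = 2.97e-05, edgeR) and 1.13 ± 0.239 in KO vs Het (adjusted p = 0.00984), the latter not called without KO 3 (0.95, adjusted p = 0.106), and the difference in Het vs WT was 1.2 ± 0.303 (adjusted p = 0.0646). WT values lay near the erythroid-like range of WT, 0.471 to 3.17 CPM, whereas KO values lay above that of KO, 0 to 1.74 CPM. In Het the erythroid-like level was 0.597 to 9.62 CPM, and the 9.62 CPM of Het 3 came from 18 UMIs in 1 cell. The share of these cells with a Tac1 UMI after thinning was 0.945%, 0.786% and 0.554% in WT, 0.729%, 0.819%, 0.958% and 1.07% in Het and 2.73%, 2.14% and 2.62% in KO, so that by this share Het overlapped WT. In erythroid-like cells it was 0.667%, 0% and 1.12% in WT, 0% to 1.205% in Het and 0% in KO. When the members were kept among the genes used for clustering, the KO vs WT value was 1.03 and not called (adjusted p = 0.103, edgeR). The KO vs Het calls of Tac1 (adjusted p = 0.116) and Cck (adjusted p = 0.167) in MGE interneuron-like cells were lost there as well. In cluster 16, which was led in part by Tac1, it had 204, 46.4 and 150 CPM in WT and 171, 198 and 202 CPM in KO, and in striatal inhibitory-like cells 36.6, 29.5 and 9.73 CPM in WT and 17.5, 29.8 and 47.0 CPM in KO (0.37, adjusted p = 0.508, edgeR).

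Penk in striatal inhibitory-like cells had 40.1, 41.6 and 46.9 CPM in WT, 28.3, 33.3, 17.9 and 14.2 CPM in Het and 26.7, 14.3 and 23.2 CPM in KO. Both mutant genotypes lay below WT and overlapped each other. The log2 fold change was -0.99 ± 0.234 in KO (adjusted p = 0.00772, edgeR) and -0.88 ± 0.211 in Het (adjusted p = 0.0366). The KO call was lost without KO 2 (adjusted p = 0.0591, edgeR), and the Het call without any 1 of Het 3, WT 1, WT 2 and WT 3 (adjusted p from 0.0647 to 0.182). DESeq2 called neither (adjusted p = 0.0514 in KO and 0.136 in Het). In finer cluster 14, led in part by Six3 and Adora2a, Penk had 98.8, 91.8 and 100 CPM in WT, 51.6, 104, 47.5 and 31.3 CPM in Het and 76.7, 45.6 and 60.04 CPM in KO. The same finer cluster had 55.6, 26.9 and 37.0 CPM of Nts in WT and 101, 221 and 40.6 CPM in KO. In layer V-VI-like cells Penk was close to its floor, at 0.839, 0.934 and 0.612 CPM in WT and 1.13, 1.67 and 2.20 CPM in KO, a rise of 1.06 ± 0.275 (adjusted p = 0.00945, edgeR) that was not called with the members among the genes used for clustering (0.47, adjusted p = 0.254). In Cajal-Retzius-like cells it had 41.7, 16.7 and 26.6 CPM in WT, 45.0, 31.7, 129 and 39.2 CPM in Het and 51.6, 49.95 and 31.9 CPM in KO, without a call (0.69, adjusted p = 0.393 in KO vs WT, edgeR).

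**Figure D5:**
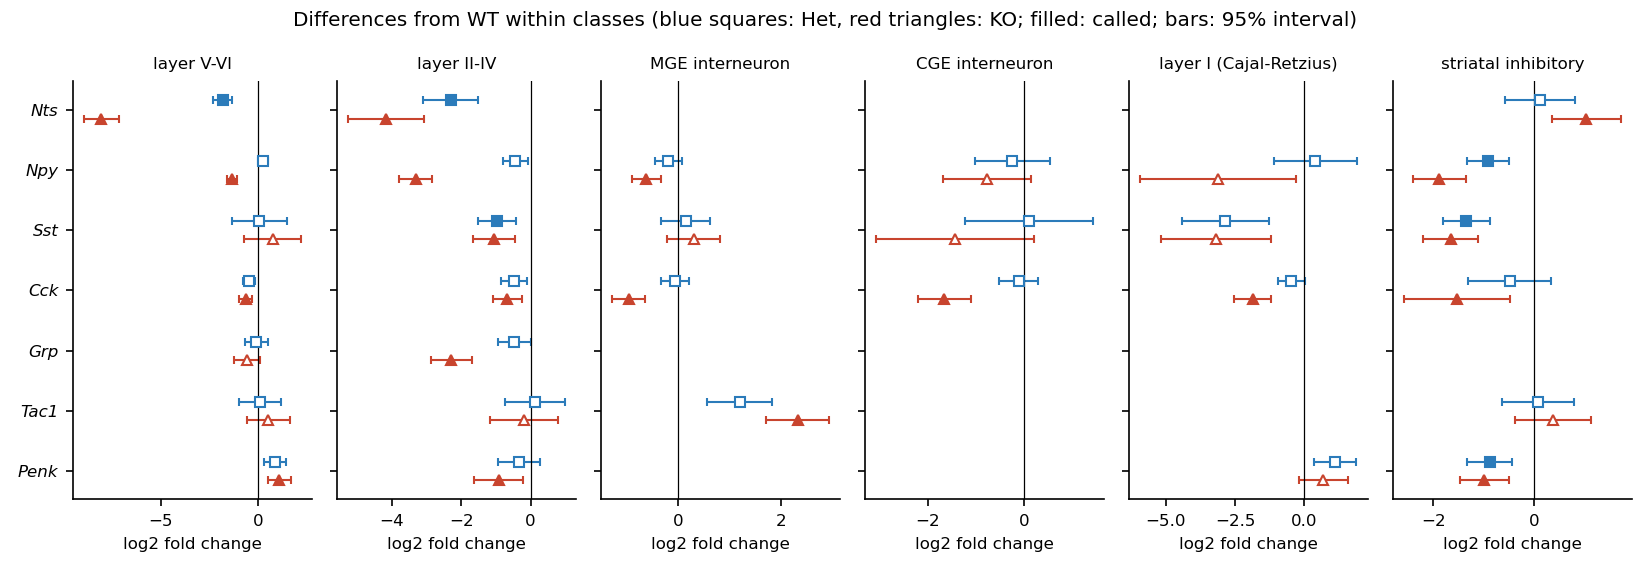
Log2 fold change from WT of 7 neuropeptide genes in 6 classes, for Het (blue squares) and KO (red triangles), with the 95% interval; filled symbols were called and the axes differ between panels. Cck lies below 0 in KO in all 6 classes, although its level in striatal inhibitory-like cells cannot be separated from free RNA. Nts lies far below 0 in layer V-VI-like and above 0 in striatal inhibitory-like cells of KO.

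Library prefix and genotype overlap, so KO vs Het was repeated within the prefix that Het 1 to 3 and KO 1 to 3 share. All of the differences above the erythroid-like level that were called in KO vs Het remained called there. Over all cells these were Npy (-1.52) and Nts (-1.74). Within classes they were Nts in layer V-VI-like cells (-6.42), Npy in layer V-VI-like (-1.57) and layer II-IV-like cells (-2.97), Grp in layer II-IV-like cells (-1.99), Cck in MGE interneuron-like (-0.89), CGE interneuron-like (-1.35) and Cajal-Retzius-like cells (-1.45), and Tac1 in MGE interneuron-like cells (0.93). With the prefix as a covariate over all 10 embryos, KO vs WT passes through Het 4 alone. Npy, Nts and Cck remained called over all cells in that fit, as did Nts, Npy and Cck in both groups of layer neurons, Grp in layer II-IV-like cells and Penk in striatal inhibitory-like cells. Grp (adjusted p = 0.186, edgeR) and Penk (0.0969) over all cells were not called, nor were Npy (-0.72, adjusted p = 0.154), Cck (-0.92, 0.0659) and Tac1 (1.44, 0.164) in MGE interneuron-like cells, Cck in CGE interneuron-like (-1.10, 0.198) and Cajal-Retzius-like cells (-2.09, 0.0616), Penk in layer V-VI-like cells (0.75, 0.359) and Nts in striatal inhibitory-like cells (0.47, 0.818). Of the values that remained called, that of Nts was -3.61 over all cells and -9.18 in layer V-VI-like cells, that of Penk in striatal inhibitory-like cells -1.88 and that of Grp in layer II-IV-like cells -3.14. Those of Cck were -1.21 over all cells, -1.18 in layer V-VI-like and -1.25 in layer II-IV-like cells. In Het vs WT with this covariate Nts over all cells, at -1.86, was not called (adjusted p = 0.0862, edgeR), nor were Npy (0.229) and Penk (0.0928) among striatal inhibitory-like cells.

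The genes that make, process and receive neuropeptides were counted for comparison over all cells. Of 40 other precursor genes 27 were tested, of 27 receptor genes 21, and of 22 genes of peptide processing and secretory granules all 22. In Het vs WT 1 precursor was lower, Nucb2, which encodes the nesfatin precursor (-0.28 ± 0.0603, adjusted p = 0.0353, edgeR), and 1 receptor, the neuropeptide Y receptor gene Npy1r (-0.56 ± 0.0722, adjusted p = 0.00551). The share of all genes was 2.98%. None of the 22 processing genes was called by edgeR, 7 had an unadjusted p under 0.05, and DESeq2 called 1, Pcsk2.

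In KO vs WT 3 precursors were higher and 2 lower, 3 receptors higher and 5 lower, and 2 processing genes higher and 8 lower. These are 18.5%, 38.1% and 45.5% of the genes tested in each list, beside 24.5% of all genes. Among the precursors Trh (thyrotropin-releasing hormone) was lower (-2.24 ± 0.479, adjusted p = 0.00446, edgeR) and Sct (secretin) rose by 1.24 ± 0.256 (adjusted p = 0.00365). Peptide receptors were called in both directions. Among those lower were Npy1r at -1.37 ± 0.0805 (adjusted p = 1.55e-06, edgeR), Npy2r at -1.28 ± 0.355 (adjusted p = 0.0163), the neurotensin receptor gene Ntsr1 at -0.68 ± 0.0981 (adjusted p = 4.92e-04) and the opioid receptor gene Oprm1 at -1.33 ± 0.229 (adjusted p = 0.00138). Vipr2 was lower too. The somatostatin receptor gene Sstr3 was higher (1.37 ± 0.150, adjusted p = 8.49e-05, edgeR), as were Sstr2 and Oprl1. Of the convertases, Furin was higher (0.32 ± 0.102, adjusted p = 0.0311, edgeR) and 3 were lower. Pcsk2, which acts in dense-core vesicles, had a log2 fold change of -0.71 ± 0.125 (adjusted p = 0.00154, edgeR), Pcsk6 of -0.83 ± 0.187 (adjusted p = 0.00596) and Pcsk5 of -0.66 ± 0.110 (adjusted p = 0.00116). The median log2 fold change in KO vs WT was -0.09 over the precursors, -0.28 over the receptors and -0.24 over the processing genes, beside -0.01 over all genes. In KO vs Het, 1 precursor, 6 receptors and 4 processing genes were called, or 3.70%, 28.6% and 18.2% of those tested, beside 5.50% of all genes. Npy1r was lower there too (-0.81, adjusted p = 1.56e-04, edgeR), as was Ntsr1 (-0.39, adjusted p = 0.0255), and Sstr3 was higher (0.92, adjusted p = 0.00224).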

How the data were processed

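The E16.5 cortex of 10 embryos (3 WT, 4 Het, 3 KO) had been profiled by single-cell RNA sequencing (10x Genomics 3′ version 3). The authors aligned the reads to mm10 with Cell Ranger and deposited UMI counts per gene and barcode without normalization. The submitters' processing notes name release 6.0.2, and the methods name an earlier one. Cells passed with a minimum of 1000 UMIs and a maximum of 10% mitochondrial UMIs, and 4.80% to 8.31% of them per embryo were marked as doublets with scanpy 1.11.5 and removed in an alternative only.

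Counts were clustered with Seurat 5.3.0 in R 4.3.3 on 2000 variable genes without the 10 members (30 principal components, integration of embryos, resolution 0.4, 26 clusters). In general a cluster took the class with the highest mean marker score of at least 0.5. Scores within 0.4 of the highest were settled by markers among the 10 leading genes, or the cluster was left unnamed or unresolved. Where the highest class had no marker there, a class with at least 3 could take the name. Some clusters with many doublets or few UMIs were left unnamed. For each embryo the counts of all cells, and of each class, were added up, and 10 embryos were fitted together with edgeR 4.0.16 (filterByExpr, TMM, quasi-likelihood F test, Benjamini-Hochberg adjustment over all genes). Calls needed an adjusted p under 0.05 and a log2 fold change beyond 0.25 in either direction. The study tested cells with MAST. Here the embryo is the replicate, and DESeq2 1.42.0 gave an alternative test. Levels are CPM without TMM factors. A finer cluster is one at resolution 0.8. Shares of cells were compared after thinning to 2000 UMIs, which left out 108 to 775 shallower cells per embryo, with two-sided exact permutation tests. Figures were drawn with matplotlib 3.10.9. The fits were tested on simulated data.

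All 10 members were named, with called genes of 3 lists (up to 10 by size of change per comparison) and the 2 most alike genes of each member. Some genes that this rule gives are not reported here. The members and lists were chosen with earlier results of these data known. Endothelial-like cells (11 to 342 per embryo) were not tested.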

Additional observations from a re-analysis of the deposited data

Results flagged for a closer look

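Of 33 values of a member in a class that were checked among the 4 Het embryos, 7 had 1 embryo far from the other 3, where chance gives about 1 in 20 groups. These were Het 4 for Nts in layer V-VI-like cells (30.9 CPM against 67.7 to 68.8), for Cck in layer II-IV-like cells (26.7 CPM) and for Sst in subventricular zone-like cells (9.06 CPM). Het 3 stood apart for Cck in Cajal-Retzius-like cells (95.1 CPM) and in striatal inhibitory-like cells (6.34 CPM). Het 2 stood apart for Npy in layer V-VI-like cells (159 CPM against 194 to 196) and for Penk in layer II-IV-like cells (0.365 CPM).

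Tests of a difference between 2 classes in the log2 fold change of a member were added after the data had been seen. Of 44 such tests, 10 were called (edgeR, interaction of class and genotype). They were 7 for KO vs WT, where 10.7% of all genes were called, and 3 for Het vs WT, where 0.473% were. The fold change in striatal inhibitory-like cells minus that in layer V-VI-like cells was -1.74 for Penk (adjusted p = 0.0201), -1.21 for Npy (0.0148) and 2.01 for Nts (6.86e-05) in Het vs WT. In KO vs WT it was -1.997 for Penk (0.00142) and 9.06 for Nts (2.20e-13). The fold change in layer II-IV-like minus that in layer V-VI-like cells was, in KO vs WT, -1.94 for Penk (0.0102), -1.98 for Npy (8.83e-05), 3.88 for Nts (0.00269) and -1.75 for Grp (0.00159). That of Npy in MGE interneuron-like minus layer V-VI-like cells was 0.71 (0.00479). Penk in the 2 layer classes and Nts in layer II-IV-like cells were near the erythroid-like level, and the part of free RNA in those 4 differences was not tested.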

How the results depend on the processing

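Alternatives changed counts more than directions. Members called over all cells in Het vs WT, 1 in the analysis as reported, ranged from 0 to 1 when 1 embryo was left out, and were 0 with the library prefix as a covariate, and those of KO vs WT, 5, ranged from 3 to 5 and were 3. Called pairs of a member and a class numbered 8 in Het vs WT (4 to 12 without 1 embryo), with 3 in DESeq2, 3 with the prefix and 28 without a filter on low counts. In KO vs WT they numbered 24 (21 to 25), with 10 with the prefix and 49 without the filter, and in KO vs Het 9 (7 to 10), with 30 without the filter. Without the filter pairs with fewer UMIs were tested too, so those counts do not compare with the rest. Shares of all genes called under the alternatives are not given, so whether these counts are particular to the members cannot be read from them. Listed genes called were 2 in Het vs WT (1 to 10 without 1 embryo), with 8 in DESeq2, 4 at 5% mitochondrial UMIs, 0 with the prefix and 1 with only both groups fitted. They were 23 in KO vs WT, with 12 with the prefix, and 11 in KO vs Het (6 to 16). The highest class stayed for 3 of 10 members at resolution 0.8, without integration and with members among the variable genes, where cluster 16 had no counterpart left as unresolved. The replicate numbers did not pair the embryos (correlations of same-numbered embryos -0.185 to 0.126, of others -0.0898 to 0.145), and the fit with the replicate number as a block gave 9 listed genes in Het vs WT, 11, 28 and 11 pairs in the 3 comparisons, and -0.16 for Tac1 and -0.059 for Pdyn in Het vs WT and 0.024 for Pdyn in KO vs Het. Other values that changed sign were those of Tac1 in Het vs WT without doublets (-0.021), Crh in Het vs WT with the prefix (-0.73), Pdyn in KO vs WT at a higher minimum of UMIs (0.029) and with the prefix (0.50), Pdyn in KO vs Het with the prefix (0.038) and within 1 prefix (0.034), and Nts in layer II-IV-like cells in Het vs WT with members among the variable genes (0.55). Without 1 embryo, values in Het vs WT ranged from -0.53 to 0.17 for Sst, from -0.28 to 0.17 for Tac1, from -0.27 to 0.024 for Penk, from -0.085 to 0.24 for Pdyn and from -0.44 to 2.53 for Crh, those in KO vs WT from -0.28 to 0.31 for Pdyn and from -2.45 to 0.52 for Crh, and that of Pdyn in KO vs Het from -0.38 to 0.21. The cause of these changes was not tested. None of these sign changes concerned a called value except Nts in layer II-IV-like cells. Depth limits Vip, Crh and Pdyn, and shares of cells gave 0 adjusted p-values under 0.05 in exact permutation tests, since 3 or 4 embryos per group do not allow one.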
